A study of Mus musculus with 2 samples.

Results

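The epidermal growth factor (EGF) receptor family was examined through 10 genes: the receptors Egfr, Erbb2 and Erbb3, the ligands Hbegf, Areg, Ereg, Tgfa, Btc and Nrg1, and the receptor inhibitor Errfi1. These are 10 of the 22350 protein-coding genes of the mouse annotation. A peak of open chromatin was counted for a gene when it overlapped the gene body or lay within 50 kb of it on mouse assembly mm9. This rule gave 35 of the 17784 distinct peaks called with vehicle and 45 of the 22600 distinct peaks called after TGFβ. Because the Areg and Ereg windows overlap, 2 of the vehicle peaks and 4 of the TGFβ peaks were counted under both genes.

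The peaks come from DNaseI-seq, in which nuclei are digested briefly with DNaseI and the released fragments are sequenced, so that fragments pile up where chromatin is accessible. The cells were NMuMG, a mouse mammary gland line of epithelial character, and all of them were first starved of serum and insulin for 6 h. They then received either TGFβ1 at 5 ng/ml for 2 h or only its carrier (HCl with BSA in the treatment protocol, written as Tris-HCl with BSA in the sample label), referred to as vehicle. There were 2 samples and 1 deposited peak list per condition, so the spread between replicates is unknown, no test between conditions was made, and every difference is one between this pair of lists. The lists carry no read depth, and by the reporting summary of the study the vehicle library was the deeper one. At least 1 start site of each of the epithelial markers Cdh1, Krt8 and Krt18 lay under a peak in both lists, whereas Epcam had none. The start sites of the blood cell markers Ptprc and Cd3e and of the endothelial markers Pecam1 and Cdh5 lay under no peak in either list.

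EGF family ligands are made as membrane-anchored precursors, are released by cleavage at the cell surface and bind receptor tyrosine kinases that signal as dimers. Erbb2 has no known ligand of its own and Erbb3 has little kinase activity, so both act through partners, and Errfi1 (also called Mig6) binds the active kinase domain of Egfr and blocks it. In mammary epithelium the family drives growth and branching of the ducts, with Areg as a main mediator of the pubertal response to oestrogen. These genes belong to a different family from TGFβ despite the name of Tgfa, which encodes an EGF receptor ligand.

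Each of the 10 genes had a peak over at least 1 of its annotated start sites in both lists. Genes with several start sites did not have a peak over each of them. The peaks called in one list alone lay away from start sites. Of the 45 TGFβ peaks, 14 had no vehicle peak over any base (TGFβ-only), which is 31.1% (95% Wilson interval of 19.5 to 45.7%) beside 33.7% of all TGFβ peaks. Of the 35 vehicle peaks, 3 had no TGFβ peak over them (vehicle-only), which is 8.57% (2.96 to 22.4%) beside 17.6% of all vehicle peaks. These intervals cover the counting of peaks only. The larger number after TGFβ depended on what was counted, since every deposited row in place of every distinct interval gave 144 rows for vehicle and 133 for TGFβ. With the longer TGFβ list cut by score to the length of the vehicle list, TGFβ-only peaks numbered 8 and vehicle-only peaks 4. Every one of the 17 unshared peaks was distal, meaning more than 1000 bp from any annotated start site.

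The sequences at the centre of the unshared peaks are shown first, because these peaks carry the difference between the lists. Each run is 200 bases of mm9, plus strand, 5′ to 3′, around the midpoint of the highest-scoring TGFβ-only or vehicle-only peak of a gene, with no run printed for Hbegf. Capitals mark exact matches, on either strand, to letters known for AP-1 (TGACTCA, read as TGAGTCA on the opposite strand) or TEAD (GGAATG, read as CATTCC on the opposite strand). A match is a description of the letters and not evidence that a factor was bound. At Egfr, 2 TGFβ-only peaks tied at the highest score the lists allow, and the runs are chr11:16616741-16616940 for the far upstream peak and chr11:16635464-16635663 for the near upstream peak. The vehicle-only peak in an Egfr intron is shown as chr11:16691394-16691593.
Egfr far upstream, TGFβ-only: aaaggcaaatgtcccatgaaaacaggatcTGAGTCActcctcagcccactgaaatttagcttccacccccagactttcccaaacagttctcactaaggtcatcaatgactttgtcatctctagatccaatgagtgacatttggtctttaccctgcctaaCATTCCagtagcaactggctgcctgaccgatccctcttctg
Egfr near upstream, TGFβ-only: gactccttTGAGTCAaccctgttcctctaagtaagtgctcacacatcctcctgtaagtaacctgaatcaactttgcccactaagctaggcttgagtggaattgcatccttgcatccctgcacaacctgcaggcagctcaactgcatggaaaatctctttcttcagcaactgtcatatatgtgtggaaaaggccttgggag
Egfr intron, vehicle-only: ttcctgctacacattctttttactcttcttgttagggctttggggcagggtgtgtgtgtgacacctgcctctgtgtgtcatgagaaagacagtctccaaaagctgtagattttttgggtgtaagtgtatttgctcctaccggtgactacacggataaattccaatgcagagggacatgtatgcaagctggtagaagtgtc

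At the ligands, the Ereg peak lies in an Ereg intron (chr5:91512162-91512361) and the peak between Ereg and Areg is the highest-scoring TGFβ-only peak of Areg (chr5:91530808-91531007). The Tgfa peak is vehicle-only and intronic (chr6:86169615-86169814). The Btc peak lies far downstream of Btc (chr5:91737015-91737214) and the Nrg1 peak in an Nrg1 intron (chr8:32989204-32989403). The Btc peak is shorter than the run printed for it, which extends past both of its ends.
Ereg intron, TGFβ-only: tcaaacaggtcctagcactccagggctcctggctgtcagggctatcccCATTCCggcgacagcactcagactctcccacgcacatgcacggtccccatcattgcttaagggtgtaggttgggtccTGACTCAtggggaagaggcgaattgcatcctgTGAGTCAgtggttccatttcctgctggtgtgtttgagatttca
Between Ereg and Areg, TGFβ-only: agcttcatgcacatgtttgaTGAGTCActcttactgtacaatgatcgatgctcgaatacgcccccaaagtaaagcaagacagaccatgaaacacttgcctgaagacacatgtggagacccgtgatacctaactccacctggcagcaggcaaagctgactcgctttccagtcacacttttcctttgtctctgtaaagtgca
Tgfa intron, vehicle-only: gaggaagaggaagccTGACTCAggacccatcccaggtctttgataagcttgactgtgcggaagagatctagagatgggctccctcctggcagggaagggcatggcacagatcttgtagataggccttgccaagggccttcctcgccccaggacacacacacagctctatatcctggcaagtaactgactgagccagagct
Btc downstream, TGFβ-only: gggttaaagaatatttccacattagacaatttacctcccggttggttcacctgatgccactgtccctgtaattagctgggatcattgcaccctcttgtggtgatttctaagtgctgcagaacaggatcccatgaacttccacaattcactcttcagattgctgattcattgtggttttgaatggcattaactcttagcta
Nrg1 intron, TGFβ-only: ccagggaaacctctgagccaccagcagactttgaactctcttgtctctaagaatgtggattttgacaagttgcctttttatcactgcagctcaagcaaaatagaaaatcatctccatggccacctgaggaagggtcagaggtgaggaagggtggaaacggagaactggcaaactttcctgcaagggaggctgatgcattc

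Upstream of Errfi1, a TGFβ-only peak (chr4:150182585-150182784) and a vehicle-only peak (chr4:150189228-150189427) lay close to each other. Neither run held any of the letters searched.
Errfi1 upstream, TGFβ-only: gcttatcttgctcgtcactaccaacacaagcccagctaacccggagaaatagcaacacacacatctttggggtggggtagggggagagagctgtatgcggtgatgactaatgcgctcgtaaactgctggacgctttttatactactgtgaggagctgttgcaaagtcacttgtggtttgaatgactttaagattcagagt
Errfi1 upstream, vehicle-only: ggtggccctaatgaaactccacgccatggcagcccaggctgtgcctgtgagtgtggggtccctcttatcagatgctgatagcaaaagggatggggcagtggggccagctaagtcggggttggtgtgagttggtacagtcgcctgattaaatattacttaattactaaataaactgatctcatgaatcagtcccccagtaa

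**Figure D1:**
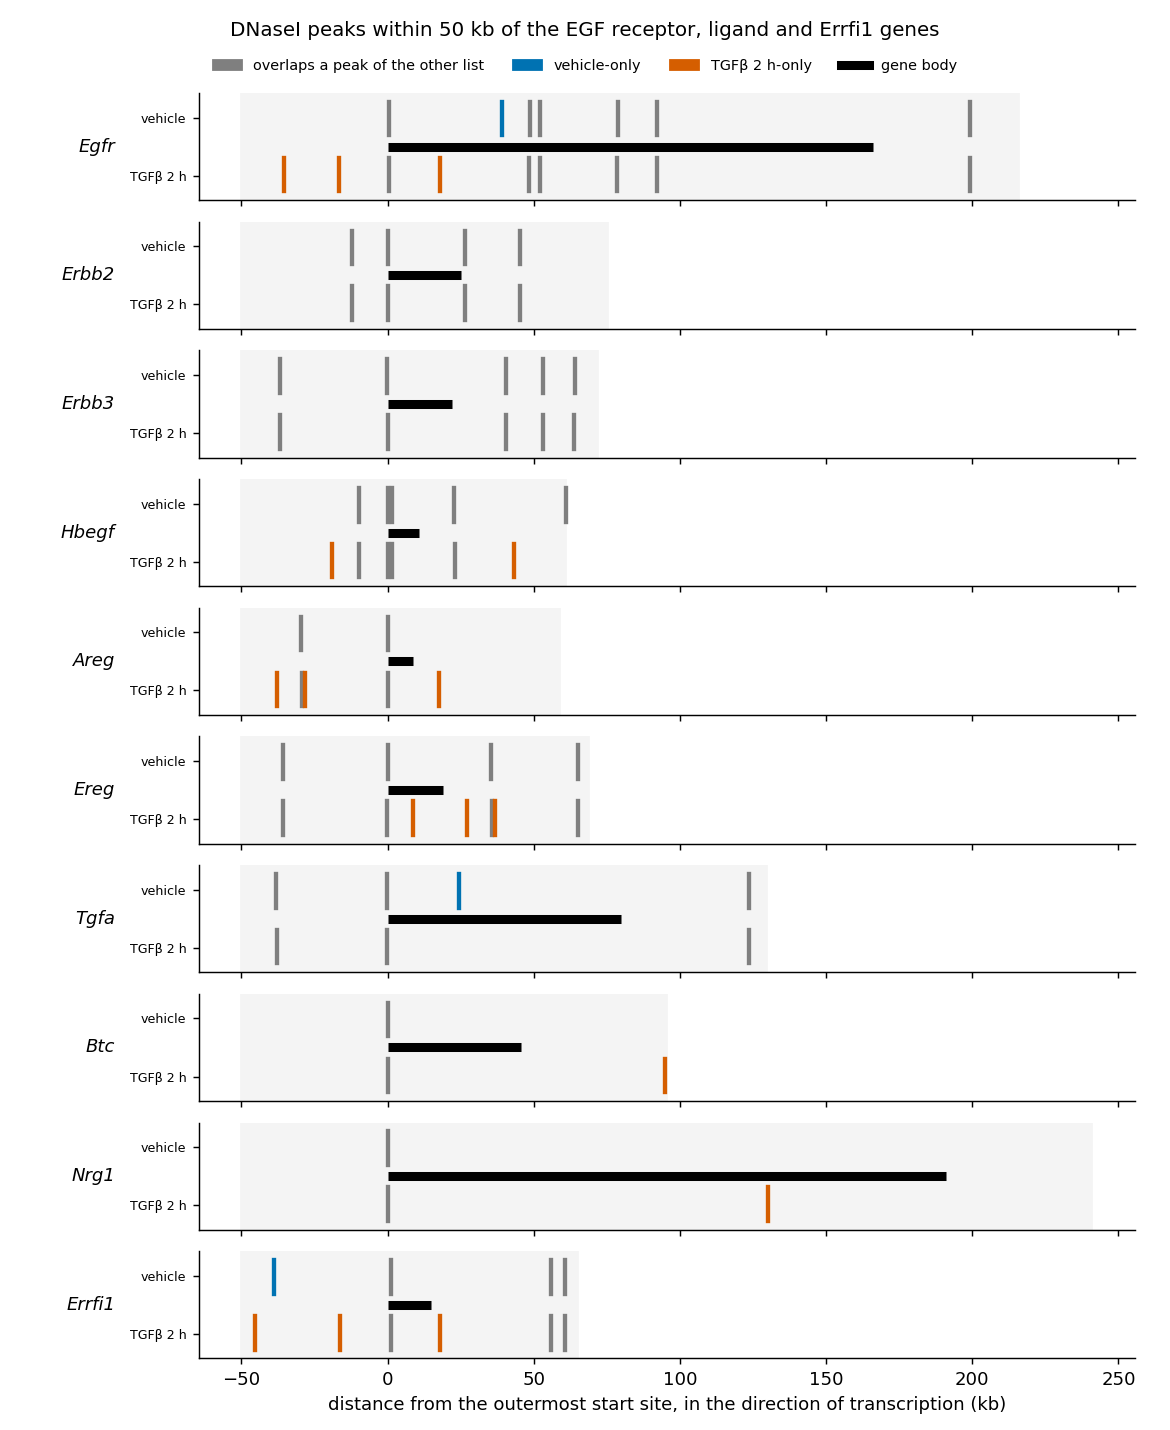
Peaks at each of the 10 genes, by the distance of the peak midpoint from the outermost start site in the direction of transcription (kb). Black bars are gene bodies, grey fields are the windows searched, ticks above the bar are vehicle peaks and ticks below are TGFβ 2 h peaks; the 14 TGFβ-only peaks (orange) and the 3 vehicle-only peaks (blue) all lie away from the shared ticks at or near position 0 that every gene has in both lists (at Errfi1 this tick is at an inner start site).

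All 10 genes had a peak over one of their own start sites in the vehicle list, compared with 45.8% of protein-coding genes, and all 10 had one in the TGFβ list, compared with 46.4%. In both lists at once the share was 43.9% of protein-coding genes. Each vehicle start site peak overlapped the TGFβ start site peak of the same gene. Start site peaks of the 10 genes were 799 to 1463 bp wide with vehicle and 591 to 1385 bp wide after TGFβ, and the TGFβ peak was narrower in 7 genes and wider in 3. Over all promoter pairs of the lists, 75.8% were narrower after TGFβ. The deposited score of a peak is a whole number from 540 to a ceiling of 1000, and it orders peaks only within its own list. The ceiling was shared by 53.2% of the vehicle list and 44.3% of the TGFβ list.

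In the vehicle list all 10 start site peaks were at that ceiling. In the TGFβ list 6 were at the ceiling, and the other 4 were those of Egfr (score 893), Ereg (884), Erbb2 (845) and Btc (704). A share of 47.1%, 46.3%, 42.7% and 27.6% of the TGFβ list, respectively, scored below these peaks. Of all promoter pairs with the vehicle peak at the ceiling, 11.5% had the TGFβ peak below it. Since the lists differ in length and in the share at the ceiling, and a peak at the ceiling can only be level or lower in the other list, no change at these genes is read from the scores.

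Among the receptors, Egfr was the gene with most peaks and the only one with unshared peaks. It also had the largest window, 266 kb against 125 kb for Erbb2 and 122 kb for Erbb3. Per 100 kb of window, Egfr had 2.63 vehicle and 3.38 TGFβ peaks. The same densities were 3.19 in both lists for Erbb2 and 4.09 in both for Erbb3. Egfr encodes the founding receptor of the family, spans chr11:16652206-16818161 on the plus strand and had 7 vehicle and 9 TGFβ peaks. The peak over its start site was called at chr11:16652003-16653301 with vehicle and at chr11:16651976-16653183 after TGFβ, with widths of 1299 and 1208 bp. Of its TGFβ-only peaks, 2 were intergenic and upstream, and each had Egfr as its nearest protein-coding start.

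The far upstream Egfr peak lay 35.4 kb before the start site (chr11:16616542-16617140), 34.9 kb from the nearest vehicle peak. The near upstream Egfr peak lay 16.6 kb before the start site (chr11:16635309-16635818), 16.2 kb from the nearest vehicle peak. Both were at the score ceiling and were the only ones among the 14 TGFβ-only peaks to be so, beside 7.77% of all TGFβ-only peaks. Each also held 1 AP-1 match in the printed run.

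The third TGFβ-only peak of Egfr lay in an intron 17.9 kb after the start site (chr11:16669863-16670369) with a score of 593, and 10.5% of its list scored lower. The vehicle-only peak, in an intron 39.3 kb after the start (chr11:16691289-16691699), had a score of 549, with 1.47% of its list below it. Thus the unshared vehicle peak of Egfr stood near the bottom of its list, whereas 2 of its 3 TGFβ-only peaks were among the 44.3% of their list at the ceiling.

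Farther along the introns of Egfr, 4 peaks were shared, all below the ceiling in the vehicle list. The intronic peak 48.6 kb after the start had a score of 669 with vehicle and 790 after TGFβ. The next, at 52 kb, had 613 and 738, and the one at 92.1 kb had 632 and 770. The peak at 78.7 kb, which covers the start of the noncoding transcript E230015J15Rik, had 765 with vehicle and was at the ceiling after TGFβ. In terms of rank, 11.3 to 28.4% of the vehicle list and 31.6 to 55.7% of the TGFβ list scored below these 4 peaks. Of all pairs whose vehicle peak was below the ceiling, 75.4% had a higher rank and 65.5% a higher score in the TGFβ list, and the lists differ in length and in the share at the ceiling, so no change at Egfr is read from these ranks.

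The Egfr peak at 52 kb (chr11:16704011-16704483 with vehicle and chr11:16704011-16704441 after TGFβ) was the only peak of the 10 genes in either list with the palindromic SMAD letters GTCTAGAC. In the 200 bp around the midpoint these letters were found in 0.169% of all vehicle peaks and 0.332% of all TGFβ peaks. Over whole peaks the shares were 0.652% and 0.836%. The run chr11:16704147-16704346 (mm9, plus strand, around the midpoint of the vehicle peak) is printed with those letters in capitals, since the SMAD proteins carry the TGFβ signal to DNA.
Egfr intron, shared, SMAD letters: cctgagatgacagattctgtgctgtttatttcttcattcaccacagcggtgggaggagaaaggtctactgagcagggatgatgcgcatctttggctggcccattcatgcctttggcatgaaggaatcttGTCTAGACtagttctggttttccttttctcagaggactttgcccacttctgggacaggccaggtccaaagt

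Erbb2 and Erbb3 had no unshared peak in either list. Erbb2, the partner receptor on chr11:98273784-98299030 (plus strand), had 4 peaks with vehicle and 4 after TGFβ, all shared. Its start site peak was 878 bp wide with vehicle (chr11:98273390-98274267) and 962 bp wide after TGFβ (chr11:98273422-98274383), and 2 of the other 3 covered starts of the neighbours Pgap3 and 1810046J19Rik. The remaining one was distal and intergenic, downstream of Erbb2 with Grb7 as its nearest coding start, at 1000 with vehicle and 983 after TGFβ.

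Erbb3, the neuregulin receptor on chr10:128004579-128026708 (minus strand), had 5 peaks in each list, all shared. Its start site peak was 1337 bp wide with vehicle (chr10:128026366-128027702) and 716 bp wide after TGFβ (chr10:128026347-128027062), a ratio of 0.536 that was the lowest among the start site peaks of the 10 genes. The 2 distal Erbb3 peaks were both at 891 with vehicle. After TGFβ the one nearer Esyt1 was at 621 and the one nearer Zc3h10 at 911, so that they stood together in one list and apart in the other.

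The 6 ligands had 15 distinct peaks with vehicle and 21 after TGFβ, and 8 of the latter were TGFβ-only. Areg, Ereg and Btc lie near each other on chromosome 5 together with Epgn, a further ligand of Egfr. Across this cluster with 50 kb on either side (chr5:91406490-91881939, 475 kb), 6 peaks were called with vehicle and all 6 were shared. After TGFβ 13 were called, of which 7 were TGFβ-only (53.8%, beside 33.7% of all TGFβ peaks). This span is wider than the windows of the listed genes. Of the 7, those at chr5:91629514-91629899 and chr5:91670719-91671196 lie outside every such window and are not among the 8 above. A shared peak (chr5:91711776-91712440 with vehicle) lies outside them too. Distal peaks of the cluster numbered 3 with vehicle and 10 after TGFβ, and 70% of the latter were TGFβ-only, beside 55.3% of all distal TGFβ peaks. These counts are small and were not tested.

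**Figure D2:**
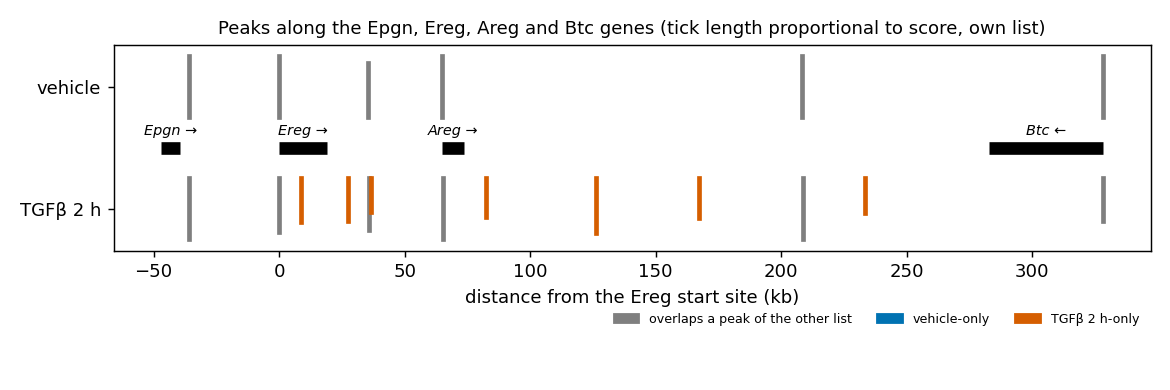
Peaks along the Epgn, Ereg, Areg and Btc genes by distance from the Ereg start site (kb), with vehicle above and TGFβ 2 h below. Tick length is proportional to the deposited score within each list, black bars are genes with arrows for strand, and grey and orange mark shared and TGFβ-only peaks. The 7 TGFβ-only peaks lie between the Ereg start and the Btc gene, and the cluster holds no vehicle-only peak. Peaks between the 50 kb windows of Areg and Btc, which are not counted under any listed gene, are drawn too.

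Ereg, which encodes epiregulin, a ligand of Egfr and Erbb4, spans chr5:91503643-91522675 on the plus strand and had 4 vehicle and 7 TGFβ peaks. The peak over its start was 911 bp wide with vehicle (chr5:91503174-91504084) and 916 bp after TGFβ (chr5:91503070-91503985). A TGFβ-only peak with a score of 716 lay in an Ereg intron 8.62 kb after the start (chr5:91512115-91512409), and its printed run held 2 AP-1 matches and 1 TEAD match. This was the only TGFβ-only peak of the 10 genes with more than 1 AP-1 match in the 200 bp around the midpoint.

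Between Ereg and Areg, 2 further TGFβ-only peaks were called and counted under both genes. The first (chr5:91530761-91531054, score 709) lay 7.73 kb from the nearest vehicle peak and held 1 AP-1 match. The second (chr5:91540157-91540625, score 546) lay 609 bp from a shared vehicle peak (chr5:91538789-91539547) and was the only one of the 14 TGFβ-only peaks within 1000 bp of a vehicle peak. Of all 7611 TGFβ-only peaks, 463 lay that close. With a share of 1.18% of its list below it, this peak was also near the lower limit of the scores.

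Areg, which encodes amphiregulin, spans chr5:91568641-91577458 on the plus strand and had 2 vehicle and 5 TGFβ peaks. Its start site peak was 948 bp wide with vehicle (chr5:91568173-91569120) and 591 bp after TGFβ (chr5:91568494-91569084). Downstream of the gene, 17.4 kb after the start, lay a TGFβ-only peak with a score of 638 (chr5:91585783-91586381), 16.7 kb from the nearest vehicle peak. Per 100 kb of window Areg had 2.76 TGFβ-only peaks, more than 97.8% of protein-coding genes, although this rests on 3 peaks. The same quantity was 2.52 for Ereg and 2.61 for Errfi1, above 97% and 97.3% of genes. It was 1.8 for Hbegf (above 91.9%), 1.13 for Egfr (85.6%), 0.687 for Btc (66.3%) and 0.344 for Nrg1 (60.7%), and 0 for Erbb2, Erbb3 and Tgfa. Areg and Ereg have 2 of these peaks in common, so their values are not separate results. Only 40.5% of all protein-coding genes had any TGFβ-only peak, and 49.5% of those with a start site peak in both lists. The ranks are among all protein-coding genes, and ranks among the latter genes were not computed.

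Btc encodes betacellulin, a ligand of Egfr and Erbb4, and spans chr5:91786287-91831939 on the minus strand. With vehicle it had only its start site peak (chr5:91831260-91832233, 974 bp, score 1000), which after TGFβ was called at chr5:91831434-91832191 with a width of 758 bp and a score of 704. The added TGFβ-only peak lay 94.8 kb downstream of the start (chr5:91737026-91737204), was 179 bp wide and had a score of 568. At 49.08 kb from the gene body this peak was just inside the 50 kb limit, and the nearest TGFβ-only peak beyond the limit of Areg (chr5:91629514-91629899) was just outside at 52.05 kb.

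Tgfa, which encodes the ligand TGFα, was the single gene of the 10 with fewer peaks after TGFβ than with vehicle. It spans chr6:86145420-86225151 on the plus strand, with 4 vehicle peaks and 3 TGFβ peaks. The start site peak was 1204 bp wide with vehicle (chr6:86144687-86145890) and 1050 bp after TGFβ (chr6:86144831-86145880), both at the ceiling. The peak lacking in the TGFβ list lay in an intron 24.3 kb after the start (chr6:86169316-86170114), was 799 bp wide and had a score of 692. It was the widest of the 3 vehicle-only peaks and held 1 AP-1 match in its printed run. The nearest TGFβ peak was 23.4 kb away. The other 2 distal peaks of Tgfa were shared, one 38 kb upstream of the start at the ceiling in both lists and one 124 kb downstream of it at 969 with vehicle and 1000 after TGFβ.

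Hbegf encodes heparin-binding EGF-like growth factor, which binds Egfr and Erbb4. It spans chr18:36664583-36675459 on the minus strand and had 5 vehicle and 6 TGFβ peaks. Its start site peak was at the ceiling in both lists and was 962 bp wide with vehicle and 780 bp after TGFβ. A shared distal peak 22.7 kb downstream of the start had a score of 587 with vehicle (chr18:36652154-36653343) and was at the ceiling after TGFβ (chr18:36652129-36652854). The vehicle list thus held it near its lower limit, with 7.42% of peaks below it. A shared peak in an Hbegf intron, 1.61 kb after the start, had a score of 748 with vehicle and 781 after TGFβ.

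The 2 TGFβ-only peaks of Hbegf had neighbouring genes as their nearest coding starts. One lay 43.2 kb downstream of the Hbegf start (chr18:36632046-36632423, score 754) with Pfdn1 nearest, and the other lay 18.9 kb upstream (chr18:36694139-36694622, score 680) in an intron of Slc4a9. The window edge also touched this gene. The vehicle peak over the Pfdn1 start lay 49.72 kb from the Hbegf body and was counted, whereas the narrower TGFβ peak over the same start lay 50.3 kb away and was not. With that peak the lists would hold 5 and 7 peaks at Hbegf.

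Nrg1 encodes neuregulin, a ligand of Erbb3 and Erbb4, and spans chr8:32928500-33119581 on the minus strand in this annotation. Its outermost start site lay under a peak of 1463 bp with vehicle (chr8:33118866-33120328) and 1385 bp after TGFβ (chr8:33118907-33120291), which also covered the start of the noncoding gene Gm17443. The only other peak was TGFβ-only, in an intron 130 kb after the start (chr8:32989137-32989471), with a score of 585. At 129 kb it had the greatest distance to a vehicle peak among the 14 TGFβ-only peaks, for which the median was 16.4 kb. The median over all TGFβ-only peaks was 23.1 kb.

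Errfi1, the inhibitor of Egfr, spans chr4:150228028-150243001 on the plus strand and had 4 vehicle and 6 TGFβ peaks. The start site of Errfi1 lay under a peak that was 799 bp wide with vehicle (chr4:150228747-150229545) and 829 bp after TGFβ (chr4:150228757-150229585), at the ceiling in both lists. This peak covers an inner start of Errfi1 as well as the start of 1700045H11Rik. All 3 TGFβ-only peaks had Errfi1 as the nearest coding start. They lay 45.3 kb upstream (chr4:150182411-150182959, score 741), 16.3 kb upstream in an intron of 1700045H11Rik (chr4:150211476-150211886, score 706) and 18 kb after the start, downstream of the gene (chr4:150245775-150246344, score 558).

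The vehicle-only peak of Errfi1 lay 38.7 kb upstream (chr4:150189062-150189593, score 649), only 6.1 kb from the far upstream TGFβ-only peak. Errfi1 and Egfr were therefore the genes with unshared peaks in both directions. At Errfi1 the other 2 shared peaks covered start sites of Park7, so no shared distal peak was found there and every distal peak of the gene was called in one list alone.

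**Figure D3:**
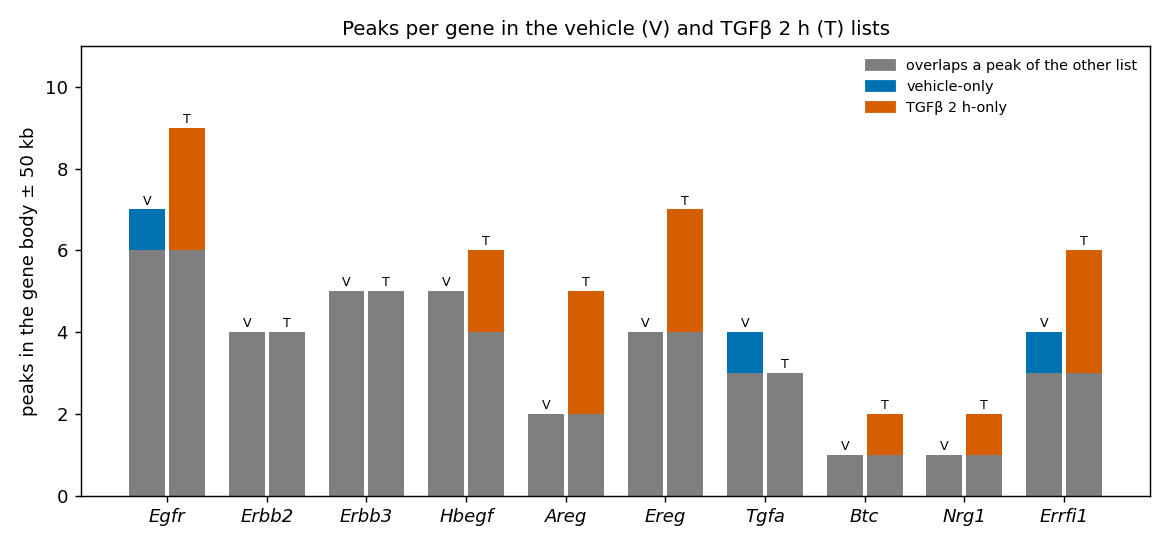
Number of peaks in the gene body and 50 kb on either side for each gene, with the vehicle list (V) on the left and the TGFβ 2 h list (T) on the right of each pair. Grey is the shared part, blue the vehicle-only part and orange the TGFβ-only part; 7 genes have taller TGFβ bars, Erbb2 and Erbb3 have equal bars, and Tgfa has a shorter one.

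Counted by gene, 7 of the 10 had at least 1 TGFβ-only peak, beside 40.5% of all protein-coding genes, and 3 of the 10 had at least 1 vehicle-only peak, beside 25.9%. The same 7 genes had more TGFβ than vehicle peaks, beside 33.7% of all genes. Since each of the 10 genes had a start site peak in both lists, the closer reference is the 9822 genes for which this held. Of these, 49.5% had a TGFβ-only peak (7 of 10 here), 31.9% had a vehicle-only peak (3 of 10 here) and 41.7% had more TGFβ than vehicle peaks (7 of 10 here). The median number of peaks per gene was 4 with vehicle and 5 after TGFβ for the 10 genes, and 3 and 4 for those 9822 genes. With 10 genes and shared windows these shares describe the family and were not tested against the other genes.

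By place, 19 of the 35 vehicle peaks (54.3%) and 18 of the 45 TGFβ peaks (40%) covered a start site of some gene. Only 10 in each list covered a start of the 10 genes themselves. The others, 9 with vehicle and 8 after TGFβ, lay over neighbours such as Esyt1, Rps26 and Park7. None of these promoter peaks was unshared (0 of 19 and 0 of 18, with Wilson upper limits of 16.8% and 17.6%), against 7.29% of all vehicle and 10.1% of all TGFβ promoter peaks. Among distal peaks, 3 of 16 with vehicle (18.8%) and 14 of 27 after TGFβ (51.9%) were unshared, against 31.6% and 55.3% of all distal peaks. Of the 14 TGFβ-only peaks, 8 were intergenic and 6 intronic, and 11 had one of the 10 genes as their nearest coding start.

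In 32 pairs a vehicle peak of the 10 genes and a TGFβ peak overlapped each other and no further peak. The TGFβ peak of 1 pair, at the Pfdn1 start, lay just past the 50 kb limit. The TGFβ peak was the narrower one in 24 pairs and the wider one in 8, so that 75% were narrower, beside 70.9% of all 13978 pairs in the lists. The ratio of TGFβ to vehicle width ran from 0.34, at the Pfdn1 start near Hbegf, to 1.43, at a distal peak 9.86 kb upstream of Hbegf, with a median of 0.921 (0.906 over all pairs). Unshared peaks of the 10 genes were narrower than the rest, with a median of 476.5 bp for the TGFβ-only peaks against 726 bp for the shared TGFβ peaks. The same medians over all TGFβ peaks were 436 and 723 bp.

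**Figure D4:**
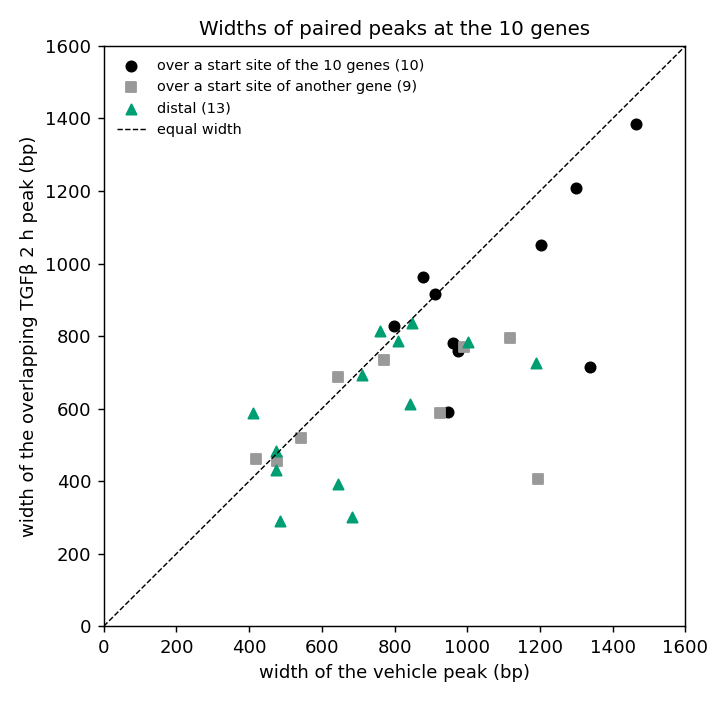
Width of the 32 vehicle peaks at the 10 genes that had a single TGFβ partner, in the vehicle list (horizontal axis, bp) and in the TGFβ 2 h list (vertical axis, bp). Circles are peaks over start sites of the 10 genes, squares peaks over starts of other genes, triangles distal peaks and the dashed line equal width; 24 of the points lie below the line and 8 above it.

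Letters for transcription factor sites were then counted in the 200 bp around each peak midpoint. AP-1 letters were found in 4 of the 14 TGFβ-only peaks (28.6%, Wilson interval of 11.7 to 54.6%), beside 25.2% of all TGFβ-only peaks and 27.2% of the distal ones. These 4 were both upstream Egfr peaks, the Ereg intron peak and the peak between Ereg and Areg. Within the 200 bp no TGFβ-only peak of Hbegf, Btc, Nrg1 or Errfi1 held them. Over 400 bp and over whole peaks, AP-1 letters were found in 5 of the 14 (35.7%), beside 39.2% and 42.1% of all TGFβ-only peaks. In the 200 bp, TEAD letters were found in 2 of the 14 (14.3%, interval of 4.01 to 39.9%), beside 14.2%. Over whole peaks they were found in 5 of the 14 (35.7%), beside 28.9%. In the 200 bp, neither the SMAD palindrome nor the ETS letters (CCGGAAG) were found in any of the 14. This allows a share of up to 21.5% by the Wilson interval, where 0.644% and 1.69% of all TGFβ-only peaks held them. The shares of all TGFβ-only peaks with AP-1 and TEAD letters lay inside the intervals of the 14 peaks.

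The rest of the pathway was described by 4 lists of 19 genes, which together had 62 vehicle and 79 TGFβ peaks counted per gene, with 5 vehicle-only (8.06%, beside 17.6% of all vehicle peaks) and 21 TGFβ-only (26.6%, beside 33.7% of all TGFβ peaks). All peaks of Epgn, 2 with vehicle and 3 after TGFβ, are also peaks of Ereg. More TGFβ than vehicle peaks were found at 11 of the 19 genes and fewer at 2, beside 33.7% of all protein-coding genes with more. Of the 19 genes, 15 had a start site peak in both lists, beside 43.9% of all protein-coding genes. More TGFβ than vehicle peaks were found at 9 of these 15, beside 41.7% of all genes with a start site peak in both lists. Of the further ligands and the fourth receptor (Egf, Epgn, Nrg2, Nrg3, Nrg4 and Erbb4), 2 of 6 had an open start site in both lists, those of Egf and Nrg4, beside the 43.9% of all genes. Erbb4 and Nrg3 had 0 peaks in both lists. Epgn and Nrg2 had no start site peak in either list and 1 TGFβ-only peak each, that of Epgn being the Ereg intron peak.

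Genes for the shedding of ligands (the proteases Adam10 and Adam17 and the regulators Rhbdf1 and Rhbdf2) had 16 vehicle and 21 TGFβ peaks, of which 5 were TGFβ-only (23.8%, beside 33.7% of all TGFβ peaks) and none vehicle-only (beside 17.6% of all vehicle peaks). Adaptors downstream of the receptors (Grb2, Shc1, Sos1, Gab1 and Ptpn11) had 25 and 26 peaks, with 3 unshared in each list (12% and 11.5%). Genes that attenuate the receptors (Cbl, Cblb, Lrig1 and Rnf41) had 15 and 22 peaks, with 2 vehicle-only (13.3%) and 9 TGFβ-only (40.9%). Beside these shares stand 17.6% of all vehicle and 33.7% of all TGFβ peaks, and no list was tested against them. In the attenuation list Lrig1, a membrane protein that promotes receptor degradation, had 4 vehicle and 9 TGFβ peaks, and Cblb, a ubiquitin ligase, had 1 and 5. Its relative Cbl went the other way, with 4 vehicle and 2 TGFβ peaks, and Rnf41 had 6 in each list.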

How the data were processed

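DNaseI-seq peaks of NMuMG cells were analysed, with 1 peak list for vehicle and 1 for TGFβ 2 h, grouped by sample title. The series text speaks of duplicates, and separate replicate lists were not analysed here. Per the labels and the methods, the authors aligned reads to mm9, and the submitters' processing notes name MACS2 2.1.2 and deepTools; the options used for DNaseI-seq are not given in the sources used here. The deposited score of a peak, made by the authors, is a whole number from 540 to 1000 that orders peaks within a list. The paper does not state what the score measures, so it is not read as a degree of openness. For DNaseI-seq the paper names the pipeline it used for ATAC-seq, with options of its own. In that pipeline ATAC-seq peaks were kept if reproducible between replicates. Scores of paired peaks are set side by side as deposited, with counts of pairs higher or at the ceiling in each list as a description only. Depth is not in the lists. The reporting summary of the study lists fewer mapped reads for the TGFβ library than for the vehicle library; those read numbers were not used, and a difference in depth can change which peaks were called.

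Each interval was repeated over rows (a mean of 3.96 for vehicle and 3.03 for TGFβ), and rows of 1 interval were collapsed to 1 peak. Gene models were GENCODE M1 on NCBIM37 (mm9). In each list 1 peak ended 37 bp past a chromosome end. A peak within 50 kb of a gene body was counted for that gene, was shared if it overlapped the other list by at least 1 bp, and was a promoter peak within 1000 bp of any annotated start. Places of peaks were read at their midpoints. Named were all 10 genes, their start site peaks and every unshared peak. Of the marker genes looked up, 1 is not reported here. The genes, lists and motifs were chosen with earlier results of these data known. Scripts used Python 3.11.15, numpy 2.4.6, scipy 1.17.1 and matplotlib 3.10.9, and were tested on simulated data. Alternatives changed the window, the overlap, the score limit, the promoter window, the motif window and the counting of rows.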

Additional observations from a re-analysis of the deposited data

How the results depend on the processing

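With 1 list per condition nothing here measures variation between cultures or digestions, and depth, which the study lists as greater for the vehicle library and which was not adjusted for, limits which weak peaks were called. Of 48 alternatives, 31 left a count within 1.5 times of the reported one, or a motif share within its Wilson interval, and 17 did not. Among the former, the share of TGFβ-only peaks with TEAD letters went from 14.3% to 35.7% over whole peaks, inside its wide interval. The 35 vehicle and 45 TGFβ peaks became 17 and 18 with the gene body alone, 19 and 23 with a 10 kb flank, 18 and 27 when only peaks with the gene as nearest coding start were kept, and 21 and 22 when peaks scoring under their list's median were dropped. Counting every deposited row gave 144 and 133, which turns the order of the lists. The 14 TGFβ-only peaks became 3 with the gene body alone, 6 with a 10 kb flank, 24 with a 100 kb flank, 6 without peaks under the median score and 8 with lists of equal length. The 3 vehicle-only peaks became 8 with a 100 kb flank and 5 with a reciprocal overlap of 50%. With the gene body alone the lists are therefore nearly level, with 2 vehicle-only and 3 TGFβ-only peaks. The cause of these shifts was not tested beyond the fewer or more peaks that each setting admits. No paired analysis was possible because a condition is represented by 1 peak list alone.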

Other observations

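In the ligand cluster on chromosome 5, 2 TGFβ-only peaks lay outside the 50 kb windows of Areg and Btc, in the stretch between the 2 genes. The one nearer Areg (chr5:91629514-91629899) had a score of 899, higher than any TGFβ-only peak counted under the ligands, and the other (chr5:91670719-91671196) had a score of 648. A shared peak also lay in this stretch (chr5:91711776-91712440 with vehicle), at a score of 1000 in both lists. These peaks were named after their values were seen.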
